A study of Aedes aegypti with 5 samples.

Results

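The transcripts described here are those of the angiopoietin-like protein of the yellow fever mosquito, *Aedes aegypti*, and of its splice variant. They were taken by their names on the array, as probe AE-6349 (angiopoietin-like protein) and probe AE-154 (angiopoietin-like protein splice variant), which are 2 of 433 gene probes. RNA came from salivary glands of female mosquitoes of the Higgs white eye strain, a pathogen-free laboratory colony, that were unfed (naive) or had fed on a BALB/c mouse 1, 3, 24 or 48 hours earlier (hours post feeding, hpf). Fed and unfed females alike had been starved for 16 h, the blood meal was the first, and ages were matched but are not stated. The glands of 10 mosquitoes made up the single RNA pool of each fed group, and how many made up the unfed pool is not stated in the labels or methods. On 3 nylon oligonucleotide arrays per pool, 15 in all, labelled cRNA was hybridized, so arrays of one pool are technical replicates. All errors and p-values below therefore measure the spread between arrays of a pool and say nothing of how mosquitoes differ. In glands taken whole, fewer cells of a type and less RNA per cell cannot be told apart.

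Angiopoietin-like proteins of vertebrates are secreted proteins that carry a fibrinogen-like domain at their carboxyl end. In invertebrates the same domain is found in fibrinogen-related proteins, a family that includes lectins of the horseshoe crab and mosquito proteins that bind the surfaces of bacteria and parasites. A splice variant is a transcript of the same gene with another choice of exons, and its probe can share sequence with the other transcript. How much of the splice variant each of these probes can bind was not tested. Neither probe was found in the RefSeq gene table used here, so no genome position or sequence is given for them.

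The array carried both probes among products of a working gland. Salivary apyrase, amylase, alpha-glucosidase and both long D7 proteins, which a female secretes with the saliva, were saturated on 15 of 15 arrays. Per array, 121 to 162 of the gene probes lay above the empty spots, meaning over their mean by more than 2 SD, and 33 to 64 were saturated, meaning at a raw intensity of 60000 or more on a scale that ends at 65535. The values given as normalized intensity are the spot minus the mean of 22 empty spots, divided by the same quantity averaged over an actin spot and a ribosomal protein S5 spot.

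The angiopoietin-like protein was hardly above the empty spots in unfed glands and well above them on every array at all times after feeding. In unfed glands its normalized intensity was 0.123, 0.0448 and 0.119 on arrays 1, 2 and 3, and only array 1 exceeded the limit of its own empty spots, which was 0.108, 0.0977 and 0.210 on these arrays. At 1 hpf it was 1.05, 1.20 and 1.47. The lowest of these arrays was above every unfed array. At 3 hpf the normalized intensity was 0.414, 0.516 and 1.10. Array 3 stood apart from the other two there, and again none overlapped the unfed arrays. At 24 hpf it was 1.08, 1.38 and 1.71, and at 48 hpf 0.249, 0.347 and 0.624. The 12 fed arrays thus ranged from 0.249 to 1.71 and all exceeded both the highest unfed array and the limit of their own empty spots. No array was saturated for this probe.

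**Figure D1:**
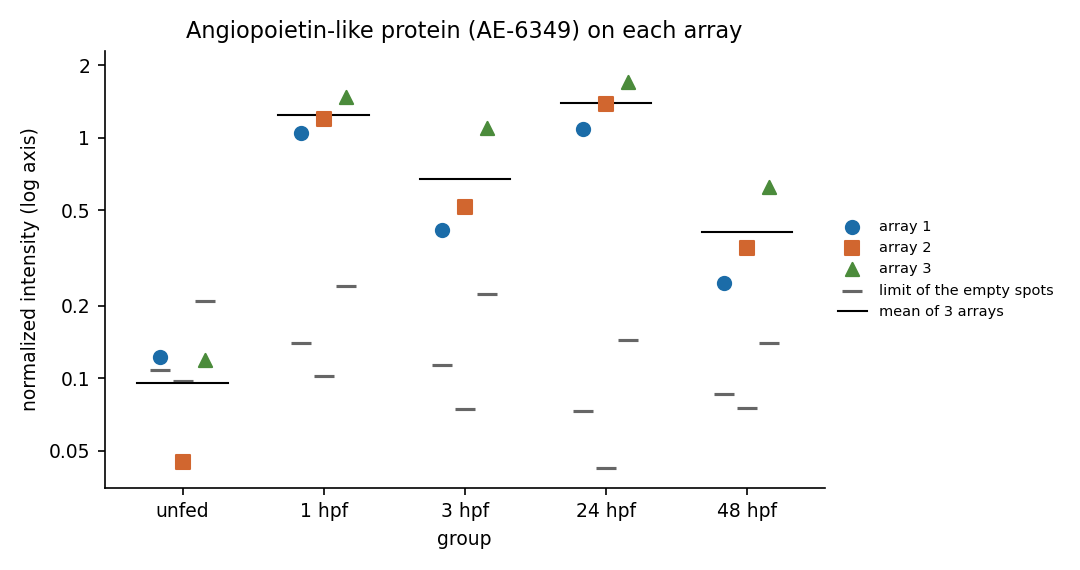
Normalized intensity (log axis, no unit) of the angiopoietin-like protein probe AE-6349 on the 3 arrays of each group, with the mean of the group as a line and the limit of the empty spots of each array as a grey tick. All 12 fed arrays lie at 0.249 or higher, above the unfed arrays, which reach 0.123, and array 3 is the highest of each fed group.

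The angiopoietin-like protein averaged 1.24 ± 0.215 at 1 hpf, against 0.0956 ± 0.0440 in unfed glands (SD, n = 3 arrays each), a ratio of 12.98. It averaged 0.676 ± 0.368 at 3 hpf, 1.39 ± 0.312 at 24 hpf and 0.407 ± 0.194 at 48 hpf, which gave ratios to the unfed mean of 7.07, 14.5 and 4.25. All of these ratios passed the 2-fold limit of the study's methods, which 4.85%, 12.5%, 5.77% and 3% of the 433 probes passed at 1, 3, 24 and 48 hpf. Since 2 of 3 unfed arrays did not exceed their empty spots, the denominator of each ratio is close to the background of the membrane.

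The test was made with limma on the log2 scale, after values below a common floor of 0.108 were set to it, with Benjamini-Hochberg adjustment over 432 probes. On that scale the angiopoietin-like protein was higher than in unfed glands by 3.40 at 1 hpf (limma, adjusted p = 0.000329), by 2.41 at 3 hpf (adjusted p = 0.0093) and by 3.55 at 24 hpf (adjusted p = 0.00042), with a standard error of 0.38 each. At 48 hpf the difference was 1.70 and missed the threshold of 0.05 (limma, adjusted p = 0.0649). With the array number as a replicate block, which pairs arrays of the same number, the standard error was 0.24 and the difference at 48 hpf passed as well (limma, adjusted p = 0.00146). Among all probes, 0.926% were called higher by limma at each of 1, 3 and 24 hpf and 0.231% at 48 hpf, while with the block 15.5%, 13.9%, 12.5% and 11.1% were called higher at 1, 3, 24 and 48 hpf. Ordered by p, the probe was at place 2, 2, 1 and 5 of 432 at these times. The fed arrays lay wholly above the unfed ones at each of the 4 times, a separation that 4.85%, 5.54%, 11.1% and 12.9% of the 433 probes showed. Leaving out unfed array 2 ended the call at 3 hpf, though the difference moved little (2.35, limma, adjusted p = 0.0610), and the call was kept without unfed array 1 or unfed array 3 (adjusted p = 0.0390 and 0.0289). At 48 hpf the probe passed without 3 hpf array 3 (1.70, adjusted p = 0.0315) and without 48 hpf array 1 (2.00, adjusted p = 0.0400).

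Arrays of the same number were also set against each other. At 1 hpf the angiopoietin-like protein was 8.54, 26.8 and 12.4 times its unfed level for arrays 1, 2 and 3, and at 3 hpf 3.37, 11.5 and 9.21 times. At 24 hpf the ratios were 8.82, 30.7 and 14.3 and at 48 hpf 2.03, 7.74 and 5.24. Array 2 gave the highest ratio and array 1 the lowest at every time, and array 2 is the one with the lowest unfed value. With the limit of the empty spots put in place of any unfed value below it, the ratios were 8.54, 12.3 and 7.03 at 1 hpf, 3.37, 5.28 and 5.23 at 3 hpf, 8.82, 14.1 and 8.14 at 24 hpf, with 2.03, 3.55 and 2.98 at 48 hpf. Every one of these 12 ratios stayed above 2.

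The order of the mean levels of the angiopoietin-like protein was 24 hpf, 1 hpf, 3 hpf, 48 hpf and unfed, from high to low. Its levels at 24 and 1 hpf could not be told apart, with a difference of 0.15 ± 0.38 on the log2 scale (SE, limma, adjusted p = 1). Between 3 and 1 hpf the difference was -0.99 (limma, adjusted p = 0.871, and 0.04999 with the block) and between 24 and 3 hpf it was 1.15 (adjusted p = 0.572, and 0.0164 with the block). Between 48 and 3 hpf it was -0.71 and passed in neither fit (limma, adjusted p = 0.977, and 0.129 with the block). The arrays did not overlap between 48 and 24 hpf, where the difference was -1.85 (limma, adjusted p = 0.0993, and 0.00156 with the block), nor between 48 and 1 hpf, where it was -1.70 (limma, adjusted p = 0.127, and 0.00131 with the block). With the block, 1.85% of probes were lower at 3 than at 1 hpf, 1.16% higher at 24 than at 3 hpf, 3.7% lower at 48 than at 24 hpf, 6.94% lower at 48 than at 3 hpf and 9.26% lower at 48 than at 1 hpf. A lower level at 48 hpf than at 24 or 1 hpf, and a lower one at 3 hpf than at its neighbours in time, thus passed only where array numbers were paired.

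The raw intensities show how the AE-6349 spots stood against the membrane around them. At 1 hpf the AE-6349 spots read 22111, 35243 and 54674, with local backgrounds of 8223, 9438 and 21741, while on the unfed arrays the spots read 6680, 4900 and 10691 and the backgrounds around them 7077, 6575 and 12286. Every unfed spot was thus dimmer than its own surroundings, at 0.745 to 0.944 times their intensity. At 3 hpf the spots read 14250, 19413 and 41325, and at 24 hpf 27444, 41981 and 57614. At 48 hpf they read 7894, 12827 and 22647, so that array 1 of this group was below unfed array 3, while the raw values of the other fed groups did not overlap the unfed ones. All 12 fed spots were brighter than their surroundings, by 1.37 to 3.74 times. Array 3 had the brightest spot in every group, and its empty spots were also the most scattered, with SDs of 2169 to 5088 on arrays of that number and of 598 to 1949 on the others. This order was not particular to the probe. The mean signal of the actin and S5 spots over the empty spots rose from array 1 to array 3 in every group, with 17870, 27026 and 34149 at 1 hpf. So did the number of saturated probes, with 41, 51 and 59 at 1 hpf.

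**Figure D2:**
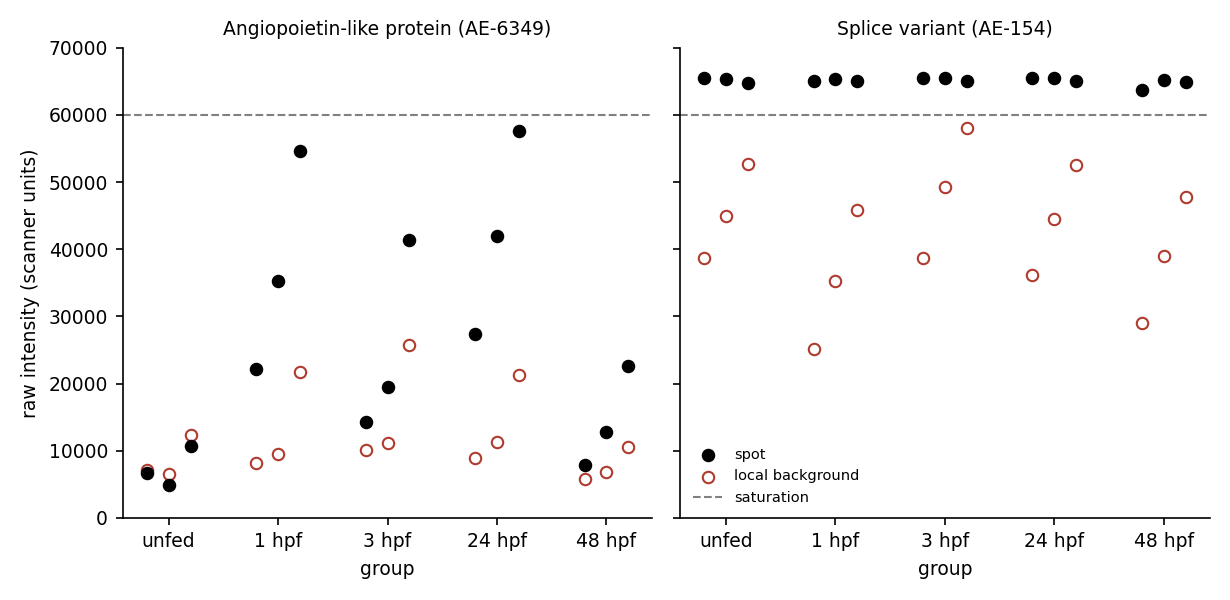
Raw intensity in scanner units of the AE-6349 spot (left) and the AE-154 spot (right) as filled points and of the local background as open circles, for arrays 1, 2 and 3 of each group from left to right. AE-6349 stays below the dashed saturation limit on all arrays and lies above its surroundings on all 12 fed arrays and on no unfed array, while AE-154 lies above the limit on all 15.

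The reference spots were dimmer on average after feeding. Their signal over the empty spots averaged 26348, 31048, 27471 and 25685 at 1, 3, 24 and 48 hpf, against 40298 in unfed glands, so that division by it raised every ratio to unfed. How this drop was split between the actin and S5 spots cannot be said, since S5 was saturated on 2 of the 3 unfed arrays. The S5 spot read 58467, 64382 and 64191 on unfed arrays 1, 2 and 3. It read 36584, 53016 and 60653 at 1 hpf, and 39944, 57171 and 61697 at 48 hpf. The paper lists actin as significantly down-regulated at 24 hpf. Why the reference spots dimmed was not tested. The S5 spot itself was saturated on 7 of 15 arrays, 2 of the 3 unfed ones among them, which limits it as a reference both alone and with actin. The median log2 difference of the 168 probes detected in any group was 0.47, 0.36, 0.13 and 0 at 1, 3, 24 and 48 hpf. Relative to that median the angiopoietin-like protein was higher by 2.93, 2.04, 3.42 and 1.70. Divided by S5 alone, it was above the median of the same probes by 2.93, 2.09, 3.30 and 1.54, and with no reference by 2.94, 2.19, 3.33 and 1.51. Without the reference, the ratios of same-numbered arrays were 4.70, 18.1 and 8.70 at 1 hpf and 1.17, 5.30 and 3.35 at 48 hpf. The direction was the same under every scaling tried, whereas the smallest single ratio, that of array 1 at 48 hpf, came close to 1.

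**Figure D3:**
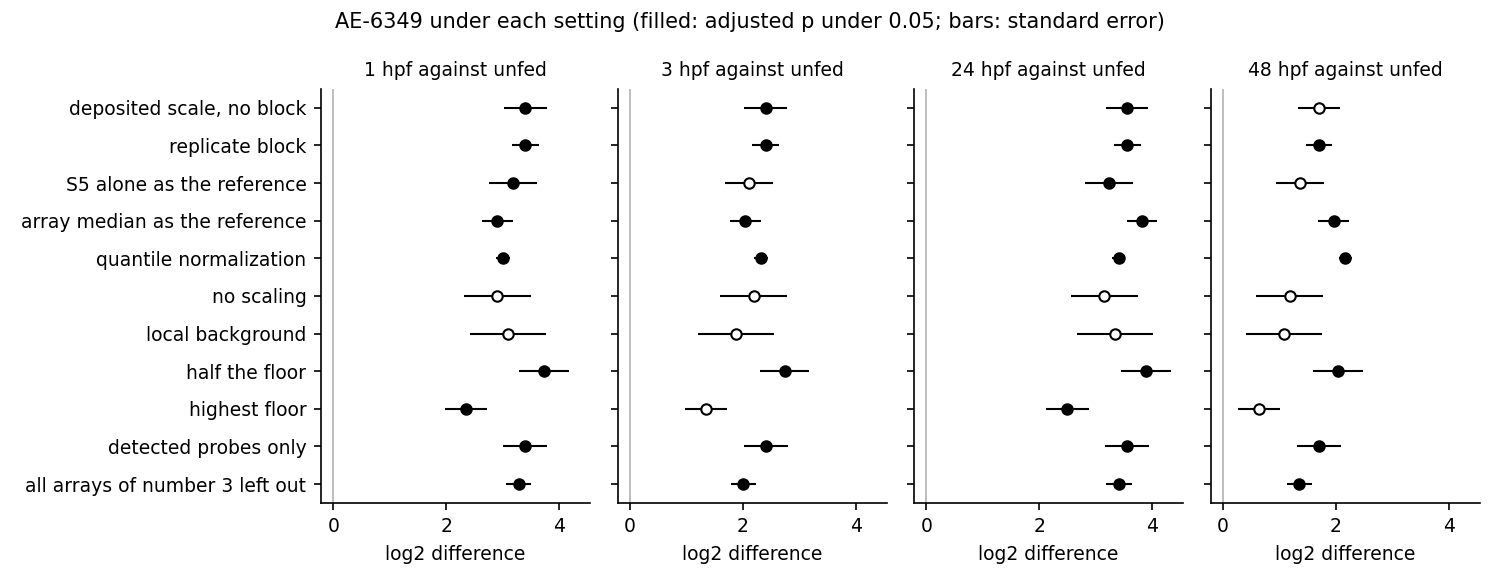
Log2 difference of the angiopoietin-like protein probe AE-6349 between each fed time and unfed glands under 11 ways of processing the arrays, with filled points where the limma adjusted p is under 0.05 and bars for the standard error. Every value is above 0, and those at 48 hpf are lower than those at 1 and 24 hpf.

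No change could be measured for the splice variant, because its probe was saturated on 15 of 15 arrays, fed and unfed. The raw intensity of AE-154 lay between 63721 and 65500. In unfed glands it was 65458, 65357 and 64716, and the means of the fed groups were 0.999, 1.00, 1.00 and 0.992 times the unfed mean at 1, 3, 24 and 48 hpf. The groups overlapped in this value, which lies at the end of the scale. The membrane around the AE-154 spot was bright too, with a local background of 25081 to 58043 that was among the 42 highest of the 433 gene probes on each array.

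The normalized intensity of the splice variant probe was nevertheless higher after feeding. It was 3.45, 2.31 and 1.78 at 1 hpf, 2.24, 1.98 and 1.80 at 3 hpf, 2.80, 2.21 and 1.94 at 24 hpf, then 3.24, 2.27 and 1.99 at 48 hpf, against 1.93, 1.56 and 1.23 in unfed glands. Array 1 was the highest and array 3 the lowest in each group, the opposite of the angiopoietin-like protein after feeding. The signal of the reference spots, by which these values are divided, rose from array 1 to array 3 in each group. The group means were 1.60, 1.28, 1.47 and 1.58 times the unfed mean at 1, 3, 24 and 48 hpf. The 30 probes saturated on every array, of which AE-154 is one, had median ratios of 1.60, 1.27, 1.47 and 1.60, with ranges of 1.59 to 1.62, 1.27 to 1.29, 1.46 to 1.48 and 1.53 to 1.60. The values of these probes at the ceiling moved with the reference spots. As one of them, the splice variant probe lies within their ranges by construction, and its ratio was close to their median at each time. Its log2 differences of 0.64, 0.37, 0.56 and 0.66 gave limma adjusted p-values of 0.241, 0.855, 0.401 and 0.286, and all passed with the block (limma, adjusted p = 0.00147, 0.0447, 0.00364 and 0.00148), and without the reference they were 0.00, 0.01, 0.01 and -0.01. The mean that the authors list for this probe at 1 hpf is 3.45, the value of array 1, whereas its 3 arrays average 2.51. It is one of 12 listed means, of 5 probes, that differ by more than 0.001 from the mean of their arrays.

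**Figure D4:**
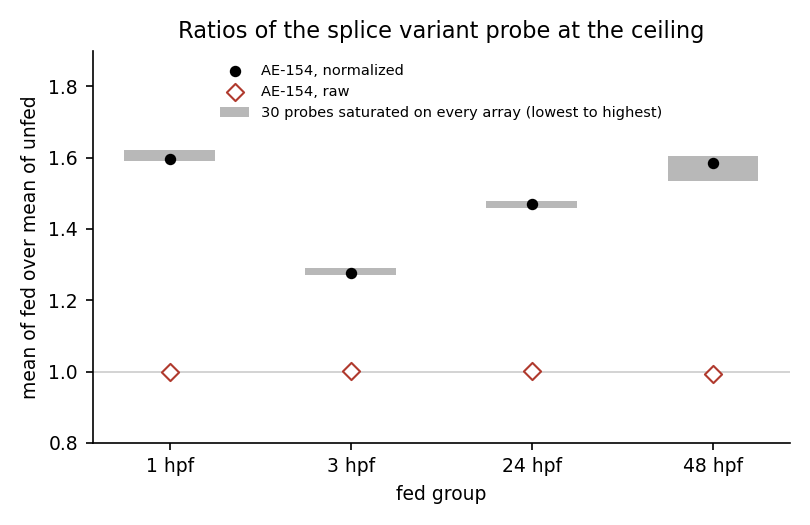
Mean of the fed arrays over the mean of the unfed arrays (ratio, no unit, axis not starting at 0) for the splice variant probe AE-154 at 1, 3, 24 and 48 hpf, from normalized intensities (filled points) and from raw intensities (open diamonds), with the range of the 30 probes saturated on every array as grey bars. AE-154 is one of the 30 probes, so its normalized ratios of 1.28 to 1.60 lie within the bars by construction, and its raw ratios lie at 0.992 to 1.00.

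The probes of the transcript pair therefore stood at opposite ends of the scale in unfed glands, with AE-6349 near the empty spots and AE-154 at the ceiling. Levels of different probes are not comparable as amounts of RNA, since each oligonucleotide binds with its own strength. A difference between the changes of both transcripts could not be measured, as no array had AE-154 below saturation.

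Both probes belong to a list of 8 described as angiopoietin-like or lectin, lectins being proteins that bind sugars. Only the angiopoietin-like protein, 1 of 8, was called by limma, as higher at 1, 3 and 24 hpf, where 0.926% of all probes were, and 0 of 8 were called lower at any time. The median log2 difference of the list was 0.51, 0.27, 0.28 and 0.25 at 1, 3, 24 and 48 hpf, against 0 over the 432 tested probes, of which only 168 were detected in any group, and against 0.47, 0.36, 0.13 and 0 over those 168. Saturated members, whose values move with the reference, enter the median of the list, and nothing is read from it. With the block, which called 15.5%, 13.9%, 12.5% and 11.1% of all probes higher, 4 of 8 were higher at each time, namely AE-6349, AE-154 and the C-type lectins AF466606 and AE-189, of which AE-154 and AF466606 were saturated on all 15 arrays and AE-189 on 11. AE-189 had ratios of 1.60, 1.35, 1.55 and 1.41. The C-type lectin AET-11911, below saturation and above the empty spots on all arrays, had ratios of 1.28, 1.04, 0.712 and 0.915 and passed in neither fit. The lectins AET-11755 and AET-5902 and the ERGIC-53 lectin AET-438, a cargo receptor of the secretory pathway, were above the empty spots on no array.

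A wider list of 19 immunity probes holds those 8 and adds antimicrobial peptides, recognition proteins and related factors. Of the 19, 5 were saturated on every array and 3 were above the empty spots on none. At each of 1, 3 and 24 hpf limma called 3 of 19 higher and 0 lower, and at 48 hpf it called 0 in either direction, while over all probes 0.926% were called higher at each of the first 3 times and 0.231% at 48 hpf. With the block 11, 11, 11 and 9 of 19 were higher, the 5 saturated probes among them at every time, and 1 was lower at 24 hpf, against 15.5%, 13.9%, 12.5% and 11.1% of all probes higher and 6.25% lower at 24 hpf. These shares of higher probes stand for 67, 60, 54 and 48 of 432 probes, of which only 168 were detected in any group. The lower one was the peptidoglycan recognition protein AE-7210, above the empty spots and below saturation on all 15 arrays. Its ratios were 2.27, 0.821, 0.514 and 0.948, and with the block it was called higher at 1 hpf. The 3 called without the block were the angiopoietin-like protein, Defensin A1 and I23Ma (AEA-233). Defensin A1 (S82860), an antimicrobial peptide, had ratios of 12.5, 14.4, 8.30 and 3.63 with 4 of 15 arrays saturated, among them all 3 at 3 hpf. I23Ma had ratios of 2.02, 1.89, 2.03 and 1.49 with 9 of 15 saturated. Saturation can lower a ratio. The median log2 difference of the list was 0.65, 0.37, 0.56 and 0.51, with the same medians over all tested and over all detected probes as above, and at each time it was the value of a C-type lectin or lysozyme probe saturated on 11 or more of the 15 arrays.

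The probes whose pattern was most like that of the angiopoietin-like protein were found by Pearson's r of log2 normalized intensity over the 15 arrays, among 90 probes that exceeded the empty spots on 6 or more arrays and were saturated on at most 5. They were a glycine rich salivary secreted peptide (AET-4173, r = 0.891), Defensin A1 (r = 0.858) and bacteria responsive protein 1 (AgBR1, AEA-871BRE, r = 0.812). The arrays share reference spots, array numbers and unfed values, and r is given as a description. The glycine rich peptide averaged 1.65, 1.06, 1.86 and 1.40 at 1, 3, 24 and 48 hpf, against 0.348 in unfed glands. Like the angiopoietin-like protein it was lower at 3 hpf than at 1 and 24 hpf, but its mean at 48 hpf exceeded that at 3 hpf. Defensin A1 averaged 1.70, 1.96, 1.13 and 0.494, against 0.136 in unfed glands, with its highest mean at 3 hpf. It was saturated on all 3 arrays at 3 hpf and on 1 at 1 hpf, so these means are limited by the ceiling. AgBR1 averaged 1.04, 0.980, 1.15 and 0.916, against 0.530 in unfed glands, and its 5 group means had the same order as those of the angiopoietin-like protein. Its fed groups overlapped, with arrays of 0.587 to 1.44 at 3 hpf and of 0.501 to 1.37 at 48 hpf. Against unfed AgBR1 passed at no time (limma, adjusted p = 0.241, 0.855, 0.401 and 0.622). With the block it passed at every time (limma, adjusted p = 0.00147, 0.00641, 0.000842 and 0.00507).

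**Figure D5:**
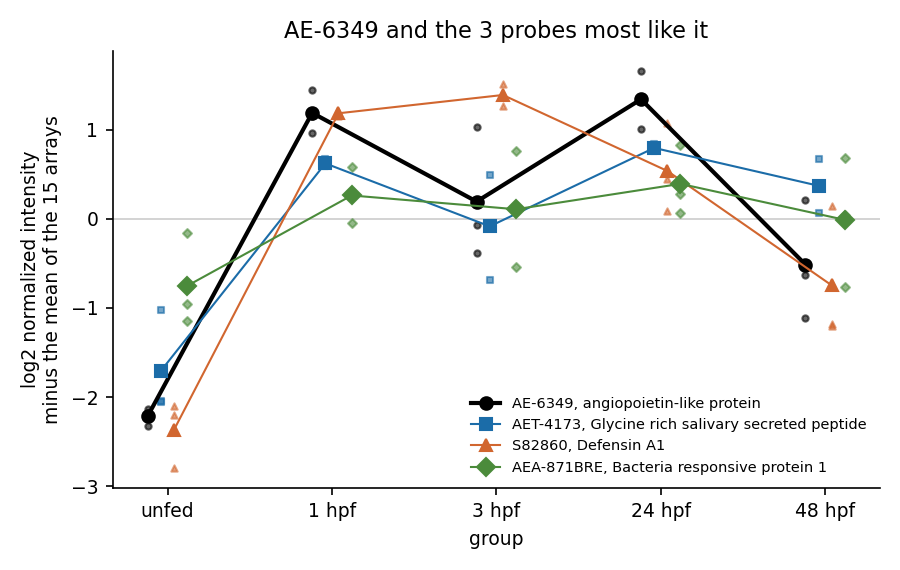
Log2 normalized intensity minus the probe's own mean over 15 arrays, for AE-6349 and the 3 probes most like it, in each group, with small symbols for arrays and large joined symbols for group means. All 4 probes are lowest in unfed glands, and AE-6349 and AgBR1 share the order of their group means, though the fed groups of AgBR1 overlap.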

How the data were processed

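Salivary gland cRNA (8 µg, made from 200 ng total RNA) of 5 RNA pools was hybridized to 3 nylon arrays each. Spots were quantified with the GEArray Expression Analysis Suite. The deposited intensity values comprise the raw mean pixel intensity of each spot, its local background, and the normalized intensity that the authors divided by the actin and S5 spots (positions 411 and 424), although the methods name ribosomal protein RpL5. Recomputed from the raw values, the normalized intensity differed by at most 0.000129. The score values deposited by the authors in the value table are ratios of group means to unfed, rounded to 2 decimals, and were used as an alternative. The authors' lists of ratios and p-values per time were not used.

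Spots of one probe were averaged, which gave 433 gene probes. Log2 values, floored at 0.108 (the median over arrays of the limit 2 SD above the empty spots), entered a single limma fit (version 3.58.1, R 4.3.3) of the 5 groups, with Benjamini-Hochberg adjustment at 0.05 over 432 probes per contrast. S5, part of the reference, was left out, while actin, the other part, stayed among the tested probes. The number of arrays limits the precision. Array numbers pair the arrays: over 159 probes, deviations from the group mean correlated at 0.320 to 0.768 in all 30 pairs of same-numbered arrays, and the fit with this block was run as an alternative. The fits were tested on simulated data with independent noise, which held neither saturation nor effects shared by same-numbered arrays. The angiopoietin-like transcripts and the gene lists, drawn by keyword from the descriptions, were chosen with earlier results of these data known. Named are both transcripts, the fibrinogen-related and lectin list, immunity probes called by limma at any time, the immunity probe called lower with the block, and the 3 probes most like AE-6349. The alternatives covered scaling, background, floor, detection, test and arrays left out.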

Additional observations from a re-analysis of the deposited data

How the results depend on the processing

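All alternatives kept the angiopoietin-like protein above unfed at the 4 times. With the replicate block it passed at 48 hpf too (1.70, limma, adjusted p = 0.00146), while the probes called higher numbered 67, 60, 54 and 48 at 1, 3, 24 and 48 hpf, against 4, 4, 4 and 1 without it. The block also took AE-154 past the threshold at every time (0.64, 0.37, 0.56 and 0.66), although this probe was saturated throughout. Local background subtraction ended the calls of AE-6349 at 1, 3 and 24 hpf (3.09, 1.88 and 3.34, limma, adjusted p = 0.102, 0.628 and 0.0831), and so did no scaling, added after the data were seen (2.90, 2.19 and 3.15, adjusted p = 0.113, 0.326 and 0.119). The methods' t-test after adjustment passed at none of these times, with log2 ratios of means of 3.70, 2.82 and 3.86, and unadjusted it missed at 3 hpf (2.82). At 3 hpf the call was also lost with S5 alone (2.11, limma, adjusted p = 0.0546) and with the highest floor (1.35, 0.225). At 48 hpf these settings gave 1.08 (local background), 1.18 (no scaling), 1.36 (S5 alone) and 0.64 (highest floor), none past the threshold. The methods' t-test missed the threshold at 48 hpf both unadjusted and adjusted, with a log2 ratio of means of 2.09. AE-6349 passed at that time with array median scaling (1.96), quantile normalization (2.17), a floor 0.5 times as high (2.03) and detected probes alone (1.70). It also passed there with array number 3 left out (1.35, also added later). The value table gave 2.82 at 3 hpf and 2.09 at 48 hpf for AE-6349 and, through the listed mean, 1.13 at 1 hpf for AE-154. Without scaling AE-154 turned to -0.0054 at 48 hpf. With single arrays left out, AE-6349 ranged over 3.27 to 3.51 at 1 hpf, 1.99 to 2.69 at 3 hpf, 3.39 to 3.72 at 24 hpf and 1.34 to 2.00 at 48 hpf, and passed in 15, 14, 15 and 2 of 15 fits. AE-154 passed in none, at 0.39 to 0.87, 0.20 to 0.53, 0.40 to 0.72 and 0.45 to 0.82. The cause of these losses was not tested. The planned comparison of both transcripts within arrays was not run, as saturation leaves no measured difference, and the unfed level of AE-6349 is limited by the background of the membrane.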
